A study of Mus musculus with 48 samples.

Results

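The genes described are 9 regulators of RNA granules and local translation, Qk, Fmr1, Fxr1, Fxr2, Stau1, Stau2, Cpeb4, Pum2 and G3bp1. They were chosen by name and matched by symbol to Ensembl identifiers, 9 of 47643 listed genes, and all 9 were among the 14618 genes that passed the filter on low counts and were tested. The study used translating ribosome affinity purification (TRAP), in which an antibody to a tagged ribosomal protein pulls down ribosomes with the RNA bound to them. All mice carried the transgene Tg(Aldh1l1-eGFP/Rpl10a) JD130Htz, in which the promoter region of Aldh1l1, a gene of astrocytes, drives ribosomal protein L10a fused to green fluorescent protein, and the pulldown was made from dorsal hippocampus with an antibody to that protein. One group was the Full Astrocytes (Astro). The other was the PAP, the perisynaptic astrocytic processes, thin branches with which astrocytes touch synapses, and how these were separated from the tissue is not given in the sources used here. The same 3 animals gave both compartments, neither group is named with a treatment, and age and sex are not given in the sources used here. Each animal and compartment was sequenced as 8 technical replicates, which were summed, so that 6 libraries remained.

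Messenger RNAs travel and wait in granules, assemblies of RNA with binding proteins that hold translation back until the RNA reaches its place or a signal arrives. Qk encodes quaking, a glial RNA-binding protein that acts in splicing, RNA stability and RNA transport. Fmr1 encodes FMRP, the translational repressor lost in fragile X syndrome, and Fxr1 and Fxr2 are its paralogs. Stau1 and Stau2 encode Staufen proteins, which bind double-stranded stretches of RNA in transport granules and in RNA decay. Cpeb4 and Pum2 encode readers of short elements in 3′ untranslated regions (UTRs), and G3bp1 encodes a core protein of stress granules, the assemblies that form when translation initiation stalls.

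The depth differed between the compartments. Pooled Astro libraries held 18707844 to 20293538 counts and PAP libraries 1829962 to 2980984, so that 3 counts, used as the floor of detection, were worth 0.152 to 0.176 CPM in Astro and 0.991 to 1.55 CPM in PAP. CPM are counts divided by the library total and brought to a common scale with TMM factors, which align the bulk of the genes between libraries. Across tested genes, log2 CPM correlated at 0.941 to 0.955 between Astro libraries and at 0.524 to 0.554 between PAP libraries, as a description of libraries since genes are not independent. The astrocyte label was checked against 10 markers, and all of them, Aldh1l1, Aqp4 and Gfap included, were detected in every library. Their summed level was 22305 to 30234 CPM in Astro and 3465, 7528 and 12223 CPM in PAP of animals 1, 2 and 3, and edgeR called 5 of the 10 lower in PAP, and 0 with the animal as a term in the fit. Genes of B-lineage cells moved the other way, with a summed level of 39.6 to 63.6 CPM in Astro and 2739 to 5778 CPM in PAP. Of these 8 genes 4 were called higher in PAP (Ms4a1, Jchain, Igkc, Mzb1) and 1 lower (Ighm), and with the animal as a term 3 were higher and 0 lower, without Ms4a1 and Ighm. Cd79a and Ighm stood at 0 counts in all PAP libraries. RNAs retained in the nucleus, such as Malat1, summed to 196 to 315 CPM in Astro and 1996 to 5272 CPM in PAP. Sums for neurons were 1016 to 1629 CPM in Astro and 482 to 1291 CPM in PAP, and those for oligodendrocytes were 1039 to 1083 and 498 to 1112 CPM. Of the 10 neuron markers edgeR called 1 higher in PAP (Syt1) and 1 lower (Snap25), and 0 with the animal as a term in the fit. All PAP libraries lay above all Astro libraries for 2 of the 10 (Syt1, Camk2a) and below for 4. Microglial markers summed to 42.1 to 89.3 CPM in Astro and 21.5 to 60.7 CPM in PAP, where Cx3cr1, P2ry12, Tmem119 and Aif1 stood at 0 counts in all libraries. Endothelial markers summed to 4.52 to 5.08 CPM in Astro and 14.9 to 24.5 CPM in PAP, where Cldn5 and Cdh5 stood at 0 counts in all libraries. Most of the PAP sum was Ly6c1 in animals 1 and 3 (23.0 and 12.9 CPM) and Tek in animal 2 (11.3 CPM). Of these 6 genes 2 were tested and 0 were called. The part of these differences in the values of the 9 genes was not tested, and in such bulk samples fewer cells of a type and less RNA per cell cannot be told apart.

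Several of the 9 proteins bind elements that can be looked for in the messages of the set itself, and the stretches below show where such letters occur. The quaking core element ACTAAC, the Pumilio element TGTANATA and the hexamer TTTTAT, a form of the cytoplasmic polyadenylation element read by CPEB proteins, were searched on the sense strand of the longest 3′ UTR annotated for each gene (GENCODE M21, build GRCm38, the same assembly as mm10). ACTAAC occurred in 19.7% of 12576 tested genes with an annotated 3′ UTR, TGTANATA in 27.3% and TTTTAT in 57.7%. UTRs differ in length, so a long one holds more matches, and a match is a description, not a site in use. ACTAAC, in capitals with 10 bases on either side, occurred 2 times each in Qk and Cpeb4 and 1 time each in Fmr1 and Pum2.
Qk, chr17:10206540-10206565, minus strand: ataccaacctACTAACtctggactat
Qk, chr17:10206457-10206482, minus strand: gagttcctggACTAACactgaagaac
Cpeb4, chr11:31932402-31932427, plus strand: atcctaatttACTAACagtcatcagg
Cpeb4, chr11:31933470-31933495, plus strand: gttaacaagaACTAACactgcttgag
Fmr1, chrX:68717746-68717771, plus strand: aatgtgaattACTAACttctaaaact
Pum2, chr12:8750501-8750526, plus strand: taaatctcacACTAACttttcaattt

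The Pumilio element occurred 3 times in the 7014-base 3′ UTR of Qk and 2 times each in those of Fmr1 (2288 bases) and Pum2 (2861 bases), so that the message of Pum2 holds the letters that its own protein reads. One match for each gene is shown, with the element in capitals, followed by a CPEB hexamer of Fmr1 that lies 35 bases from the annotated end of the message.
Qk, chr17:10208719-10208746, minus strand: gtaatgaaatTGTAGATAaagtgtagtg
Fmr1, chrX:68717350-68717377, plus strand: caatattctcTGTACATAttagcgacaa
Pum2, chr12:8750408-8750435, plus strand: tgtacagaatTGTATATActtataattg
Fmr1, chrX:68717919-68717944, plus strand: agatgtaaatTTTTATtaaaaagttg
TTTTAT itself occurred 12 times in Qk, 11 times in the 4102-base UTR of Cpeb4, 5 times each in G3bp1 (5170 bases) and Pum2, 4 times in Fmr1 and 2 times in Stau2 (2291 bases). G3bp1 and Stau2 held neither of the other elements. None of the 3 elements was found in the UTRs searched for Fxr1 (1389 bases), Fxr2 (598 bases) and Stau1 (1795 bases), which says only that these letters are not in those windows.

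In whole astrocytes, Qk was by far the most abundant of the 9 messages. Levels between genes are compared per kilobase of exonic length, and on that scale Qk stood at 81.6 ± 20.6 CPM per kb (SD, n = 3) in Astro. Next came Fxr2 at 14.8 ± 1.75, Stau1 at 14.0 ± 5.56, G3bp1 at 12.1 ± 3.95 and Fmr1 at 11.2 ± 2.64 CPM per kb. Cpeb4 at 8.73 ± 1.03, Stau2 at 8.17 ± 1.48 and Fxr1 at 8.11 ± 0.394 CPM per kb followed, and Pum2 was lowest at 3.03 ± 0.532. Every Astro library of Qk lay above every library of Fxr2, and every library of Fxr1 above every library of Pum2, while all other neighbours in this order overlapped.

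The order in PAP was different at the top. G3bp1 stood at 105 ± 17.3 CPM per kb (SD, n = 3) and Qk at 62.5 ± 41.6, with overlapping libraries, and both lay above the other 7 in order. Those 7 ran from Fxr1 at 10.5 ± 5.05 CPM per kb down to Cpeb4 at 4.07 ± 5.65 and Fmr1 at 1.74 ± 2.77, each overlapping its neighbour. The sum of the 9 genes was 1674 ± 351 CPM in Astro and 1914 ± 382 in PAP (SD, n = 3), with overlapping libraries. Without Qk the other 8 summed to 476, 429 and 631 CPM in Astro and to 1314, 885 and 870 CPM in PAP, where G3bp1 alone held 652 to 879 CPM.

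**Figure D1:**
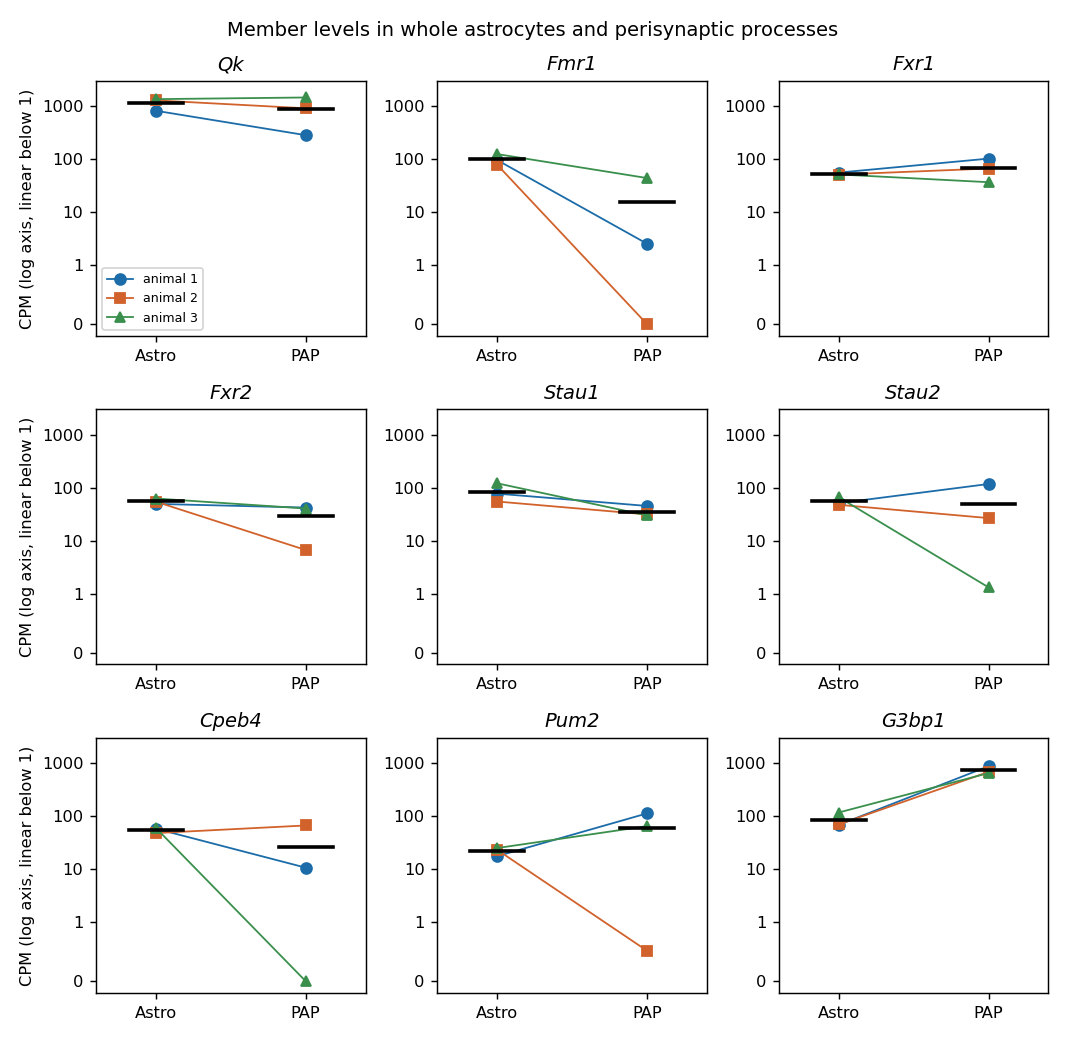
Level of each of the 9 genes in each library, in TMM-scaled CPM on a log axis that is linear below 1, with Astro on the left, PAP on the right and a line joining the points of an animal. Astro points span at most 55.0 to 121 CPM for Stau1, the widest ratio in Astro, whereas PAP points of Fmr1, Stau2, Cpeb4 and Pum2 run from 2.55 CPM or less to at least 44.3 CPM, and only G3bp1 has all PAP points above all Astro points.

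Of the 9 genes, 1 was called higher in PAP and 0 were called lower by edgeR's quasi-likelihood test, with p-values adjusted over all tested genes and a threshold of 0.05. Over all tested genes 5.92% were called higher and 15.4% lower. The median log2 fold change of PAP over Astro was -0.38 over the 9 genes and -0.53 over all tested genes (-0.46 with a bound in place of the fitted value for the 2460 genes that a whole group held at 3 counts or fewer). At an unadjusted p under 0.05, 0 of the 9 were lower, the DESeq2 Wald test called 1 lower (Stau1), and limma voom called 0. Over all tested genes DESeq2 called 11.5% higher and 23.6% lower, and limma voom 4.13% and 19.9%. Since each animal gave an Astro and a PAP library, a blocked fit, with the animal as a term, was run beside the first. It again called 1 of the 9 higher and 0 lower, with 1 lower at an unadjusted p under 0.05 (Fmr1). The blocked fit called 0.876% of all tested genes higher and 0.0342% lower, 0.910% in all, against 21.3% in all without the block. In the blocked fit the median log2 fold change was -1.19 over the 9 genes and -1.63 over all tested genes. Astro and PAP libraries did not overlap in 4 of the 9 genes, with PAP above for G3bp1 and below for Fmr1, Fxr2 and Stau1. Over all tested genes the groups did not overlap in 46.0%, with PAP above in 10.9% and below in 35.1%, so the share among the 9 was close to that of all genes.

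G3bp1 (ENSMUSG00000018583, chromosome 11, 55469685 to 55504838, plus strand) was the gene of the set that rose. Its level was 68.8, 70.0 and 118 CPM in Astro of animals 1, 2 and 3 and 879, 686 and 652 CPM in PAP. All PAP libraries were high and all Astro libraries low, with a wide gap between the groups. The log2 fold change was 3.11 ± 0.34 (SE), an 8.64-fold rise with an edgeR adjusted p of 0.00736, and in the blocked fit 3.15 ± 0.45 with an adjusted p of 0.0489. Within animals PAP was 12.8-fold higher in animal 1, 9.79-fold in animal 2 and 5.54-fold in animal 3. The call was lost without Astro animal 1 (2.98, adjusted p 0.0596) or Astro animal 2 (3.02, adjusted p 0.0615), at almost the same size. PAP of animal 1 was highest for G3bp1 and also for the B-lineage and nuclear RNA sums, and PAP of animal 3 was lowest for all of them, a likeness over 3 libraries whose part in the result was not tested. G3bp1 rested on 1330 to 1972 counts in PAP, and the 3 annotated genes within its span, on its own strand, had 7 counts or fewer in each library.

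G3bp2, the paralog of G3bp1 in the same granules, stood at 97.3, 107 and 139 CPM in Astro and 325, 250 and 201 CPM in PAP. Its PAP libraries all lay above its Astro libraries, but the log2 fold change of 1.18 ± 0.34 (SE) did not pass (edgeR adjusted p 0.0559, blocked fit 0.241). Caprin1, a partner of both G3BP proteins, stood at 144, 111 and 182 CPM in Astro and 474, 427 and 144 CPM in PAP. Its PAP libraries of animals 1 and 2 were high and that of animal 3 lay within the Astro range, so the groups overlapped (log2 fold change 1.26 ± 0.50, SE, edgeR adjusted p 0.148, blocked fit 0.338). Usp10, a deubiquitinase that binds G3BP proteins, stood at 0, 116 and 95.8 CPM in PAP against 62.3, 58.7 and 44.4 CPM in Astro, so that PAP was above Astro in animals 2 and 3 and had no count in animal 1.

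Qk (ENSMUSG00000062078, chromosome 17, 10202601 to 10319854, minus strand) differed between the compartments by less than the spread between animals. Its level was 825, 1295 and 1366 CPM in Astro and 286, 918 and 1468 CPM in PAP of animals 1, 2 and 3. The lowest and the highest value of Qk were both in PAP, so the groups overlapped. The log2 fold change was -0.38 ± 0.57 (SE, edgeR adjusted p 0.737), and -0.64 ± 0.42 in the blocked fit (adjusted p 0.412). Without PAP animal 1 the log2 fold change of Qk was -0.003, and without PAP animal 3 it was -1.02. Within animals PAP was 2.89-fold lower in animal 1, 1.41-fold lower in animal 2 and 1.08-fold higher in animal 3. The summed astrocyte markers had the same order of animals in PAP, with animal 1 lowest and animal 3 highest, and their part in the spread of Qk was not tested.

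The genes closest to Qk over the 6 libraries were ranked by the distance between log2 CPM values, each gene centred on its own mean, among 9972 genes of at least 10 CPM on average. Tmem218 was closest (distance 0.253), at 58.6, 85.0 and 77.5 CPM in Astro and 16.3, 57.2 and 92.9 CPM in PAP. Kdm7a, a histone demethylase gene, followed (0.451), at 22.5, 24.4 and 30.1 CPM in Astro and 5.10, 17.0 and 33.4 CPM in PAP. Tbl1x came next (0.466), at 74.1, 87.0 and 104 CPM in Astro and 25.5, 60.3 and 126 CPM in PAP. Like Qk, each of the 3 was lowest in PAP of animal 1 and highest in PAP of animal 3, a likeness for which they were selected. Of the other 8 regulators Stau1 was closest to Qk, at a distance of 2.43. The distance of a typical gene is not given, so whether 2.43 is large was not tested.

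In the FXR family, Fmr1 and its paralogs, no gene passed the test. Fmr1 (ENSMUSG00000000838, chromosome X, 68678541 to 68717963, plus strand) stood at 96.5, 78.6 and 126 CPM in Astro and at 2.55, 0 and 44.3 CPM in PAP of animals 1, 2 and 3. All PAP libraries were below all Astro libraries, but they ranged from 0 and 5 counts in animals 2 and 1 to 134 counts in animal 3. Within animals Fmr1 in PAP was 37.8-fold lower in animal 1 (95% counting interval 16.2 to 117), at least 50.9-fold lower in animal 2 against the floor of 3 counts, and 2.84-fold lower in animal 3. At equal depth, 1829962 counts a library, Astro held 176, 142 and 224 counts of Fmr1 and PAP 5, 0 and 83. With so wide a spread the log2 fold change of -2.67 ± 1.66 (SE) did not pass (edgeR adjusted p 0.361), nor did -4.95 ± 1.97 in the blocked fit (0.207). Without PAP animal 3 it was -6.35 with an adjusted p of 0.0272, so the call turned on that library.

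Fxr1 (ENSMUSG00000027680, chromosome 3, 34019943 to 34070322, plus strand) stood at 56.1, 51.5 and 51.8 CPM in Astro and at 103, 67.0 and 37.0 CPM in PAP. PAP was above Astro in animals 1 and 2 and below it in animal 3, so the groups overlapped (log2 fold change 0.38 ± 0.56, SE, edgeR adjusted p 0.740, blocked fit 0.866). The sign of Fxr1 turned without PAP animal 1, to -0.07. Its exons share 178 bases with Dnajc19 on the opposite strand, and since the strand setting of the counting is not given in the sources used here, reads there cannot be told apart.

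Fxr2 (ENSMUSG00000018765, chromosome 11, 69632990 to 69653297, plus strand) stood at 49.7, 54.8 and 62.8 CPM in Astro and at 42.4, 6.70 and 40.6 CPM in PAP. All PAP libraries were below all Astro libraries, closely in animals 1 and 3, while PAP of animal 2 had only 13 counts. The log2 fold change was -0.90 ± 0.81 (SE, edgeR adjusted p 0.553, blocked fit 0.559).

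The make-up of the family was steady in Astro and not in PAP. Per exonic length, Fmr1 held 32.5% ± 4.11, Fxr1 24.0% ± 3.10 and Fxr2 43.5% ± 3.05 of the family's level in Astro (SD, n = 3). In PAP Fxr1 held 57.7%, 85.2% and 26.4% in animals 1, 2 and 3, and Fmr1 held 1.04%, 0% and 23.1%. The summed level of the 3 genes was 202, 185 and 240 CPM in Astro and 148, 73.7 and 122 CPM in PAP, so that the sum was lower in PAP in each animal and the groups did not overlap.

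Of the Staufen genes, Stau1 had the narrower spread in PAP and Stau2 the narrower spread in Astro. Stau1 (ENSMUSG00000039536, chromosome 2, 166947549 to 166996299, minus strand) stood at 77.5, 55.0 and 121 CPM in Astro and at 45.4, 31.4 and 30.1 CPM in PAP. Every PAP library was below every Astro library, and PAP was 1.71-, 1.75- and 4.04-fold lower within animals 1, 2 and 3. The log2 fold change of -1.25 ± 0.56 (SE) did not pass (edgeR adjusted p 0.193, blocked fit 0.454), while the DESeq2 Wald test gave -1.18 with an adjusted p of 0.0383.

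Stau2 (ENSMUSG00000025920, chromosome 1, 16228674 to 16520112, minus strand) stood at 51.3, 47.7 and 66.5 CPM in Astro and at 118, 26.8 and 1.32 CPM in PAP. PAP of animal 1 was above all Astro libraries, that of animal 2 below them, and that of animal 3 held only 4 counts, so the groups overlapped. Within animals Stau2 in PAP was 2.30-fold higher, 1.78-fold lower and 50.3-fold lower (95% counting interval 19.6 to 185). The log2 fold change was -0.18 ± 1.28 (SE, edgeR adjusted p 0.952, blocked fit 0.666), and its sign turned without Astro animal 3 (0.00), PAP animal 2 (0.05) or PAP animal 3 (0.33). Of the Staufen level per exonic length, Stau1 held 62.0% ± 5.44 in Astro (SD, n = 3) and 30.0%, 56.6% and 96.2% in PAP. The 2 antisense loci annotated within the span of Stau2 had 1 count or fewer in every library.

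Cpeb4 and Pum2, the readers of UTR elements, both had a PAP library with 1 count or none and another above all Astro libraries. Cpeb4 (ENSMUSG00000020300, chromosome 11, 31872211 to 31935634, plus strand) stood at 58.3, 48.1 and 60.3 CPM in Astro and at 10.7, 67.0 and 0 CPM in PAP. PAP of animal 2 was above all Astro libraries and the others were below them, so the groups overlapped (log2 fold change -1.10 ± 1.66, SE, edgeR adjusted p 0.739, blocked fit 0.517). For Cpeb4 the blocked fit gave a log2 fold change of -2.82, and leaving out PAP animal 2 gave -3.46. Within animals Cpeb4 in PAP was 5.44-fold lower in animal 1, 1.39-fold higher in animal 2 and, against the floor of 3 counts, at least 60.8-fold lower in animal 3.

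Pum2 (ENSMUSG00000020594, chromosome 12, 8674134 to 8752581, plus strand) stood at 17.7, 23.2 and 25.1 CPM in Astro and at 113, 0.515 and 65.1 CPM in PAP. PAP of animals 1 and 3 was above all Astro libraries, with 222 and 197 counts, and PAP of animal 2 was below them, with 1 count. Within animals Pum2 in PAP was 6.41-fold higher, 45.0-fold lower (95% counting interval 8.07 to 1776) and 2.59-fold higher. The log2 fold change was 1.44 ± 1.41 (SE, edgeR adjusted p 0.589, blocked fit 0.909), and it was 1.96 without PAP animal 2 (adjusted p 0.0421), 0.53 without PAP animal 1 (adjusted p 0.838) and 0.47 in the blocked fit. PAP of animal 2 was thus high for Cpeb4 and low for Pum2.

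**Figure D2:**
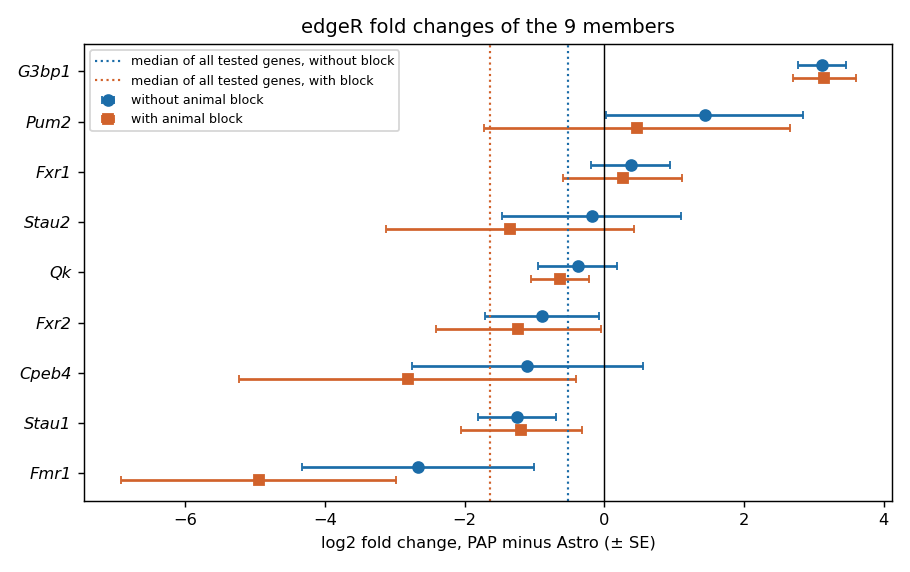
Log2 fold change of PAP over Astro for the 9 genes, with points for the estimate and bars for a standard error derived from the F statistic, from edgeR without and with the animal as a block. Dotted lines mark the median of all tested genes, -0.53 and -1.63. G3bp1 lies at 3.11 and 3.15 with short bars, whereas the bars of Fmr1, Stau2, Cpeb4 and Pum2 exceed 1 on the log2 scale in both fits.

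The wide PAP values were alike in all technical replicates of a library. These replicates share an animal and a compartment, so their likeness says nothing about the cause of differences between animals. In PAP of animal 2 Fmr1 had 0 counts in 8 of 8 technical replicates, and in PAP of animal 3 it had 8 to 21 counts in each. Cpeb4 had 0 counts in 8 of 8 technical replicates of PAP of animal 3 and 10 to 25 counts in each of animal 2. Pum2 had 0 counts in 7 of 8 technical replicates of PAP of animal 2, and 19 to 33 and 16 to 36 counts in each of animals 1 and 3. G3bp1, by the same measure, was present in every technical replicate. The intervals and floors given here cover counting error only, since no molecular identifiers are mentioned and amplified reads are not independent molecules.

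**Figure D3:**
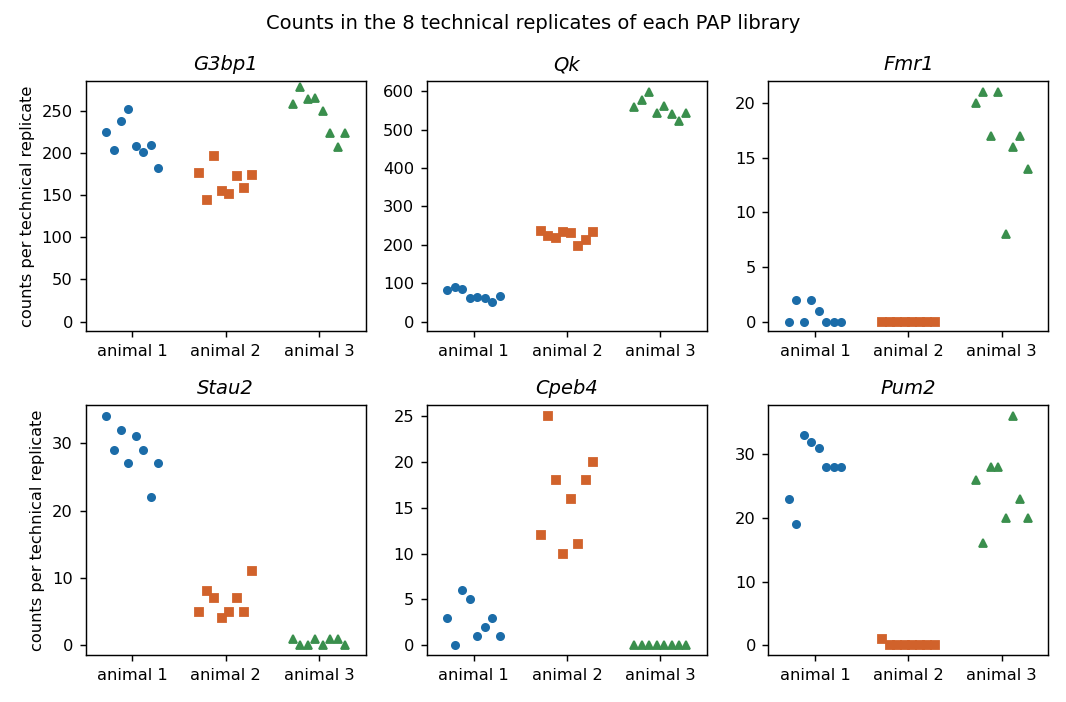
Counts of G3bp1, Qk, Fmr1, Stau2, Cpeb4 and Pum2 in the technical replicates of the PAP libraries, with 1 point for each technical replicate and the animals side by side (a linear axis for each gene). Points of an animal lie together, so that Fmr1 in animal 2 and Cpeb4 in animal 3 have all 8 points at 0.

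The spread of the 8 genes other than Qk in PAP was set beside that of 4819 tested genes of like Astro level, 22.0 to 100 CPM on average. It was measured as the SD over the 3 PAP libraries of log2(CPM + 1), and the like genes had a median SD of 1.64 in PAP and 0.25 in Astro. The SD of Pum2 in PAP was 3.40, and 89.4% of the like genes had a smaller one. For Cpeb4 it was 3.06 (80.6%), for Stau2 2.87 (75.8%) and for Fmr1 2.80 (73.7%). Fxr2 lay at 1.42 (46.3%) and Fxr1 at 0.73 (25.8%), and Stau1 at 0.32 (9.48%) and G3bp1 at 0.23 (5.98%) had smaller SDs in PAP than most of the like genes. These were matched on the Astro level alone, while G3bp1 was higher in PAP, at 739 ± 122 CPM (SD, n = 3). Of the like genes 50.7% had 3 counts or fewer in at least 1 PAP library, as did Fmr1, Cpeb4 and Pum2 among the 9, and 0 had so few in an Astro library. Genes at or near 0 in single PAP libraries were thus common at this level of expression.

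**Figure D4:**
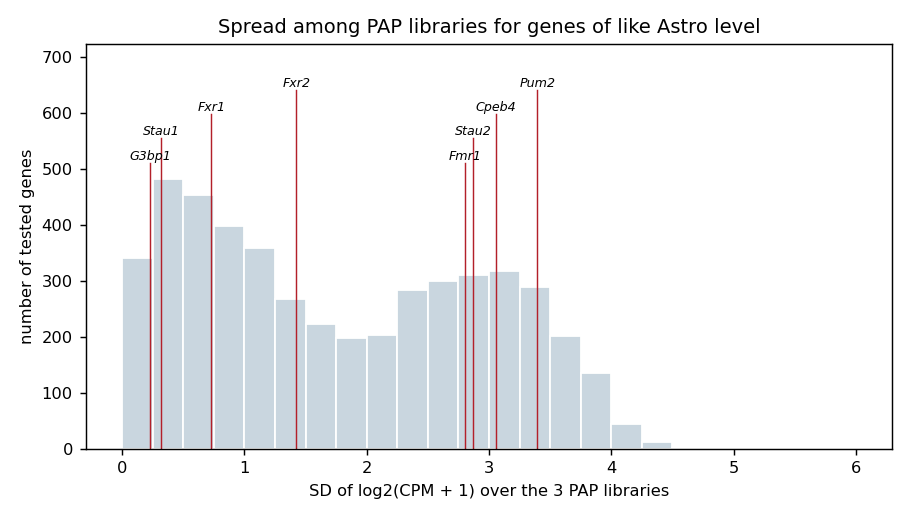
SD over the 3 PAP libraries of log2(CPM + 1) for 4819 tested genes of like Astro level, as a histogram, with the 8 genes other than Qk marked by lines. G3bp1 and Stau1 lie at the low end, at 0.23 and 0.32, and Pum2 lies furthest to the right, at 3.40, where 89.4% of the genes have a smaller SD.

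The other genes of these pathways were taken from a list of 80, of which 78 were tested (Igf2bp1 and Mov10 were too low). The list was chosen with earlier results of these data known, so the calls counted below describe it and do not test it. Of the 78, 12 were called higher in PAP and 5 lower by edgeR, beside the 5.92% and 15.4% of all tested genes given above, and the list's median log2 fold change was 0.62, and the same with bounds for the 5 genes at that floor in PAP. Among those called lower, Cpeb2, Lsm14b, Elavl2 and Mtor held 1, 1, 3 and 4 counts in all PAP libraries together. They passed the filter on low counts only through Astro, so these lower calls are descriptive. In the blocked fit 3 were called higher, Pabpc1, Ybx3 and Ago2, and 0 lower, with 3 lower at an unadjusted p under 0.05, and the median was -0.02, beside -1.63 over all tested genes in that fit. Leaving out Astro animal 1, 2 or 3 left 3, 2 and 3 higher and 0 lower in each case, and over all genes the same fits called 114, 123 and 135 higher, against 865 with all libraries. Reads of genes with near-identical processed copies elsewhere in the genome could be split in counting, so the values of Pabpc1 and Ybx1 are uncertain for each gene by itself.

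Among CPEB, poly(A) and Pumilio proteins 2 of 13 rose and 1 fell, beside 5.92% and 15.4% of all tested genes. Pabpc1 had the largest log2 fold change of the list among genes called higher. Pabpc1, the main cytoplasmic poly(A)-binding protein, stood at 70.3, 65.3 and 68.8 CPM in Astro and at 3972, 2400 and 2135 CPM in PAP, with a wide gap between the groups. PAP of animal 1 was highest, as it was for the B-lineage and nuclear RNA sums, whose part in this and the other differences of the list was not tested. Its log2 fold change was 5.38 ± 0.34 (SE, edgeR adjusted p 0.00196, blocked fit 0.0151). Pabpc4, a second poly(A)-binding protein, rose by 3.63 ± 0.83 on the log2 scale (adjusted p 0.0256, blocked fit 0.206). Cpeb2, the CPEB protein of the same subgroup as Cpeb4, was lower, at 16.6, 15.8 and 23.3 CPM in Astro and 1 count in all PAP libraries together, 128-fold lower by pooled counts with a 95% counting interval of 23.1 to 5073 (adjusted p 0.0208, blocked fit 0.206). The other 10 of the 13 genes of this group did not pass, among them Cpeb1, with PAP libraries from 0 to 108 CPM, and Cpeb3.

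Among stress granule proteins, the group of G3bp1, 3 of 11 rose and 0 fell by edgeR, beside 5.92% and 15.4% of all tested genes. In this group 0 were lower at an unadjusted p under 0.05 by edgeR and 0 were lower by DESeq2 or limma voom. DESeq2 called 5 of the 11 higher, G3bp2 and Atxn2l besides the 3 that edgeR called, and limma voom called the same 3 as edgeR, beside 11.5% and 4.13% of all tested genes called higher by these tests. In this group 5 of 11 had all PAP libraries above all Astro libraries, beside 19 of 80 in the whole list and 10.9% of all tested genes. Since the list, this group included, was chosen with earlier results of these data known, these shares are a description. Ybx3, a cold-shock domain protein that binds and masks messages, stood at 56.4, 55.8 and 64.1 CPM in Astro and at 1526, 801 and 1102 CPM in PAP. Every PAP library of Ybx3 was far above Astro, with a log2 fold change of 4.28 ± 0.34 (SE, edgeR adjusted p 0.00244, blocked fit 0.0167). Ybx1, its relative, rose by 2.45 ± 0.28 (adjusted p 0.00857, blocked fit 0.0852), and Serbp1, a ribosome-associated RNA-binding protein, by 2.15 ± 0.28 (0.0139, blocked fit 0.126). By edgeR the other 8 did not pass, and Tia1, Tial1, Usp10, Ubap2l, Atxn2 and Ddx3x had overlapping groups.

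Of the microRNA silencing proteins 2 of 7 tested rose, beside 5.92% of all tested genes. Ago2, the Argonaute that can cut its targets, stood at 20.2, 24.0 and 42.9 CPM in Astro and at 879, 503 and 513 CPM in PAP, without overlap. Its log2 fold change was 4.44 ± 0.47 (SE, edgeR adjusted p 0.00625, blocked fit 0.0327), and the call was lost without Astro animal 2, although the log2 fold change of Ago2 was at least 4.09 in each alternative. Tnrc6b, a scaffold that Argonautes bind, rose by 2.66 ± 0.73 (adjusted p 0.0471, blocked fit 0.206), a call that 6 of 16 alternatives kept. Ago3 was at 131, 0 and 252 CPM in PAP against 15.1 ± 1.25 in Astro (SD, n = 3), a spread like that of Pum2, and did not pass (adjusted p 0.311, blocked fit 0.671).

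Transport granule and messenger RNA-binding proteins had 2 genes higher and 2 lower of 20 tested, beside 5.92% and 15.4% of all tested genes. Purb, a single-strand binding protein of dendritic transport granules, rose by 1.97 ± 0.28 on the log2 scale (edgeR adjusted p 0.0180, blocked fit 0.163), and Celf1, which binds GU-rich elements, by 1.53 ± 0.40 (0.0401, blocked fit 0.206). Elavl1, the widely expressed Hu protein that binds AU-rich elements, fell by 1.89 on the log2 scale, from 136 ± 20.4 to 36.8 ± 14.3 CPM (SD, n = 3, adjusted p 0.0408, blocked fit 0.206). Of 16 alternatives 6 kept the call of Elavl1, and library size alone, a filter on 100 counts, equal depth and limma voom were among those that did not, while 8 kept that of Celf1. Elavl2, its neuronal relative, was at 3 counts in all PAP libraries together (adjusted p 0.0403, blocked fit 0.238), 11.96-fold lower by pooled counts with a 95% counting interval of 4.09 to 58.0. The FMRP partners had 0 of 6 called in either direction, by edgeR with and without the block. At an unadjusted p under 0.05 edgeR had 1 of them higher (Caprin1) and 0 lower, and the DESeq2 Wald test called Caprin1 higher while limma voom called 0. Cyfip1, which links FMRP to the cap-binding complex, had 48.5, 0 and 85.3 CPM in PAP and 137, 140 and 191 CPM in Astro, with PAP below Astro in each animal. Its paralog Cyfip2 had 185, 176 and 64.8 CPM in PAP and 58.4, 68.1 and 131 CPM in Astro, with PAP above in animals 1 and 2 and below in animal 3.

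Of 13 processing body and deadenylation proteins 1 was higher and 1 lower, beside 5.92% and 15.4% of all tested genes. Dcp2, the decapping enzyme, rose by 4.70 ± 0.70 on the log2 scale, from 4.74 ± 1.12 to 124 ± 60.5 CPM (SD, n = 3, edgeR adjusted p 0.0200, blocked fit 0.160). Lsm14b was at 1 count in all PAP libraries together (adjusted p 0.0334, blocked fit 0.224), 45.6-fold lower by pooled counts with a 95% counting interval of 8.18 to 1801. In signalling to translation 2 of 8 rose and 1 fell, beside the same shares of all tested genes. Eif4ebp2 and Eif4ebp1, repressors that hold the cap-binding factor, rose by 4.02 ± 0.73 and 2.23 ± 0.36 (both adjusted p 0.0208, blocked fit 0.1199 and 0.206). Mtor, the kinase that inactivates these repressors, was at 4 counts in all PAP libraries together against 12.3 ± 1.94 CPM in Astro (SD, n = 3), 21.4-fold lower by pooled counts with an interval of 8.35 to 78.4 (adjusted p 0.0210, blocked fit 0.232).

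**Figure D5:**
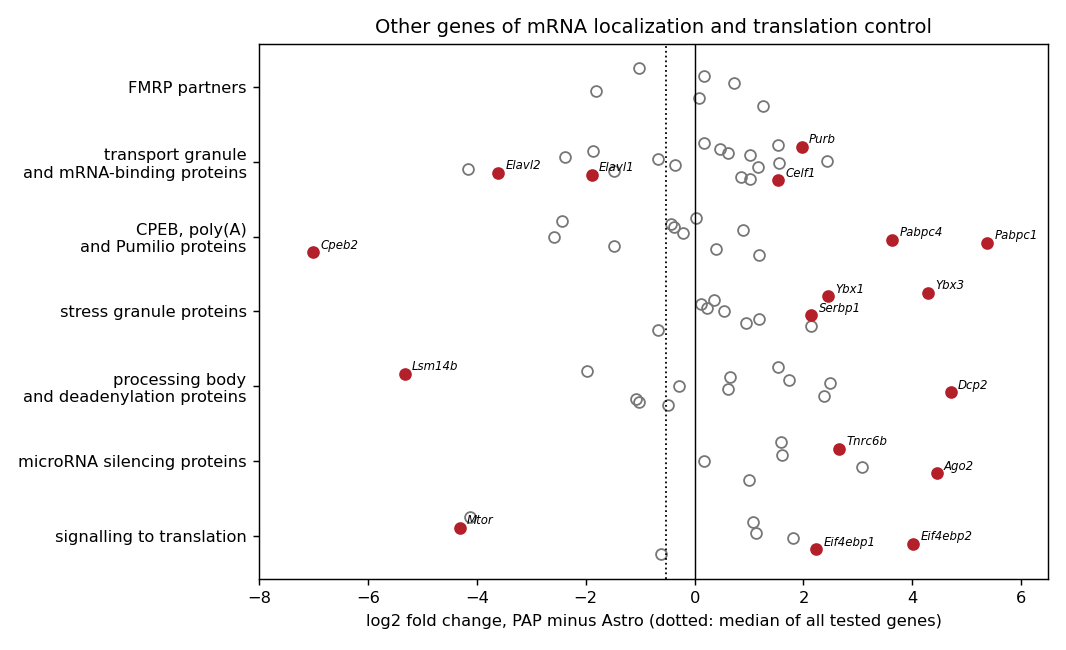
Log2 fold change of PAP over Astro for the tested genes of the pathway list, by role, with 1 point for each gene, the called genes filled and a dotted line at the median of all tested genes. Points of genes at or near 0 counts in PAP, such as Cpeb2 and Lsm14b, are fitted values that depend on the prior count. Pabpc1 at 5.38, Dcp2 at 4.70, Ago2 at 4.44 and Ybx3 at 4.28 lie furthest above 0, and the FMRP partners hold no called gene.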

How the data were processed

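Per the file headers, each deposited file gives a gene identifier and a raw count, with no scaling by the authors. The submitters' processing notes name bcl2fastq 2.18.0.12, Trim Galore 0.4.1, STAR 2.5.2b, SAMtools, HTSeq 0.5.3 and the build mm10. The annotation, strand setting and treatment of multiply mapped reads are not given in the sources used here. Counts were summed over the 8 technical replicates, which gave 6 libraries. Symbols, exonic lengths and coordinates (1-based) came from GENCODE M21 on GRCm38, which matched 47224 of 47643 identifiers (99.12%).

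Genes passing filterByExpr (minimum count 10) entered edgeR 4.0.16 (R 4.3.3): TMM factors, quasi-likelihood test, PAP against Astro, Benjamini-Hochberg adjustment and a threshold of 0.05. The SE given for edgeR is the absolute log2 fold change divided by the square root of the test's F statistic. It is approximate, above all for genes with a library at or near 0 counts. The pairing comes from the animal named in the labels, and a blocked fit was run beside the main one. Deviations of the libraries of an animal from their group means correlated at 0.0327, 0.0185 and -0.0272 over the tested genes. The code was tested on simulated data with the same spread in both groups, so that test did not cover the wider spread of PAP. Alternatives used DESeq2 1.42.0, limma 3.58.1, other scalings and filters, each series of technical replicates, thinned counts and fits without each library. The genes named were the 9 regulators, every gene of the pathway list that edgeR called and the 3 genes closest to Qk. Genes outside this rule, such as G3bp2, Caprin1, Usp10, Cyfip1, Cyfip2, Ago3, Cpeb1 and Cpeb3, were named after their values were seen, as paralogs or partners. The members and lists were chosen with earlier results of these data known. Some genes of the lists are not reported here.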

Additional observations from a re-analysis of the deposited data

How the results depend on the processing

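The direction of Qk, Fmr1, Fxr2, Stau1, Cpeb4 and G3bp1 was the same in all 16 alternatives, with G3bp1 from 2.92 to 3.43 on the log2 scale and under the threshold in 14. Fits without a library gave 0 to 2 of the 9 genes higher and 0 to 1 lower, and 2 to 17 pathway genes higher and 0 to 10 lower; the log2 fold change of Stau2 ran from -2.02 to 0.33 over all alternatives, with 0.00, 0.05 and 0.33 without Astro animal 3, PAP animal 2 and PAP animal 3, and that of Fxr1 from -0.073 (without PAP animal 1) to 0.612 over the fits without a library. Stau2 lay at 0.061 with a filter on a mean of at least 100 counts, and Pum2 at -0.295 in limma voom. With the replicate block the log2 fold change of G3bp1 was 3.15, and 3 pathway genes were higher and 0 lower, against 128 and 5 of all genes; the block changed no call among the 9. The DESeq2 Wald test called 1 of the 9 lower (Stau1), and 20 pathway genes higher and 10 lower. Pathway genes called lower were 2 at equal depth, 2 at a mean of at least 100 counts and 2 with all genes kept, and fewer low genes were tested in the first 2 of these settings. Apart from the fewer genes or samples in a setting, the cause was not tested. Over all genes 865 were called higher and 2250 lower, against 571 and 1549 with all genes kept, 588 and 826 under the filter on 100 counts, 723 and 965 at equal depth, 1685 and 3456 by DESeq2, and from 114 to 1251 and from 1 to 3335 without a library. The median over all genes was -0.53, and it was -1.63 with the block, -1.62 in limma voom, -1.04 with all genes kept, -0.38 with library size alone, -0.32 under the filter on 100 counts and -0.22 at equal depth; no direction among the 9 turned under another scaling. The depth of PAP limits values near 1 to 1.55 CPM.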
